A study of Triticum aestivum and Aegilops tauschii and Triticum carthlicum with 33 samples.

Results

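Leaf transcripts of 2 natural tetraploid wheat lines, TD265 and Blackbird, were compared on the Affymetrix wheat GeneChip. The 6 arrays, 3 labelled biological replicates of each line, were chosen by their labels from 33 arrays in 11 groups. TD265 is Triticum turgidum ssp. dicoccoides, wild emmer, and Blackbird is T. turgidum ssp. carthlicum. Both lines carry the B and A genomes and no D genome, neither carries a labelled transgene or treatment, and growth was at 24 °C in the 16 h light period and 20 °C in the dark. Groups given beside these lines are TTR13 (T. turgidum ssp. durum), Extracted-tetra (B and A genomes recovered from a bread wheat), the bread wheat TAA10, the Aegilops tauschii lines TQ18 and 30A, the hexaploid XX329 (with Extracted-tetra as its mother), the synthetic hexaploid Allo-960S7 at selfed generation 7, and 2 RNA mixes, XX329 mix and Allo-960 mix. Allo-960 mix holds 2 parts of Blackbird RNA to 1 part of 30A. Each subspecies is represented by 1 line, so a difference between these lines is not one between the subspecies. The labels do not give the age of the plants or how many were pooled. The p values measure the spread between arrays within a group, pooled over all 11 groups and not taken from these 2 lines alone.

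Wild emmer is the wild ancestor of the domesticated tetraploid wheats, and carthlicum wheat, also known as Persian wheat, is a domesticated, free-threshing relative. Green wheat leaves are dominated by the transcripts of photosynthesis. Rubisco fixes carbon dioxide, its large subunit is encoded by the chloroplast genome, and the other enzymes of the Calvin cycle regenerate its substrate. The A and B copies of most genes are similar in sequence, and many probe sets of this chip read more than 1 copy.

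Levels are log2 expression summaries (1 unit is 2-fold), and calls were made in limma where the adjusted p was under 0.05. In TD265 against Blackbird, 12305 of 61179 probe sets were called, which is 20.1% of those tested. Of these, 5870 (9.59% of those tested) were higher in TD265 and 6435 (10.5%) were lower, and the median difference over all probe sets was 0.03. A difference of at least 2-fold was called for 3848 (6.29%), with 1555 of them above Blackbird (2.54%) and 2293 below it (3.75%). At 4-fold or more the counts were 456 higher (0.745%) and 706 lower (1.15%), and at 32-fold or more 25 higher (0.0409%) and 51 lower (0.0834%). The larger differences were thus more often lower than higher in TD265.

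**Figure D1:**
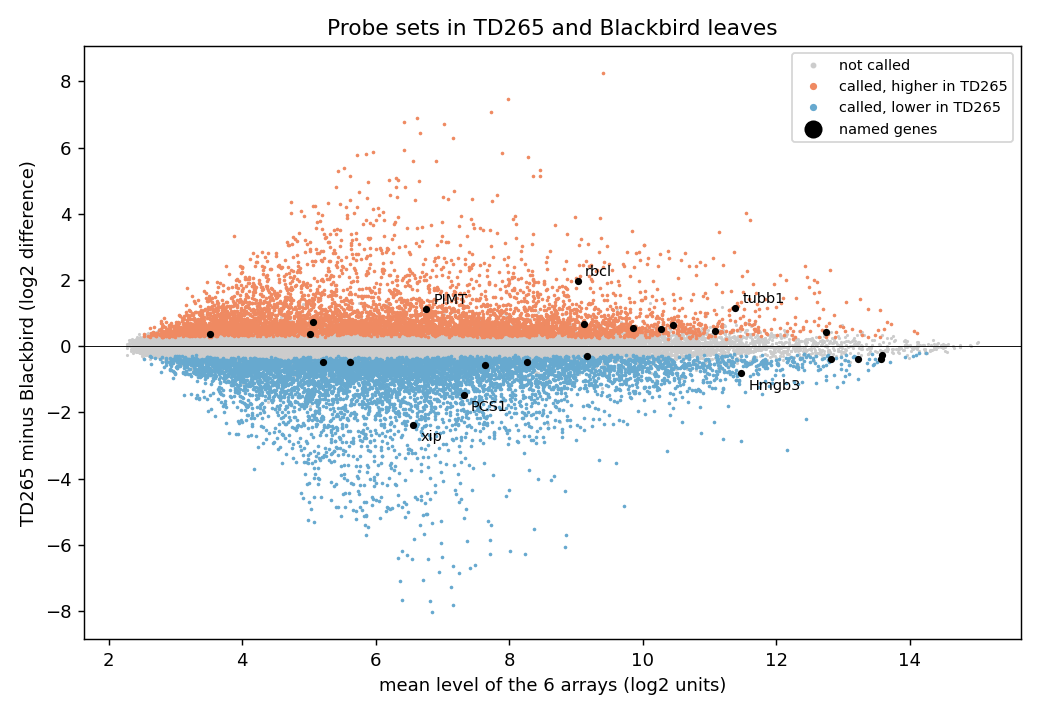
Each point is a probe set, with its mean level over the 6 arrays (log2 units, x axis) and its log2 difference TD265 minus Blackbird (y axis); orange and blue points were called higher and lower in TD265, and black points are the named genes. Called at 4-fold or more were 456 probe sets above 0 and 706 below 0.

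The share called was lowest among dim probe sets and highest from 8 to 10 log2 units. It was 6.65% of 25020 probe sets with a mean under 4 log2 units, 22% from 4 to 6, 36% from 6 to 8, 39.7% from 8 to 10 and 35% of 2462 probe sets at 10 or more. The median size of a difference was 0.11 in the lowest of these classes and 0.31 from 8 to 10, while the median standard error stayed between 0.13 and 0.16. Probe sets of the plain type were called in 17.6% of cases, x-type probe sets, some of whose probes match unrelated sequences, in 24.1%, and the a and s types, shared by related transcripts, in 38.7% and 32.5%.

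Arrays within a line were close, with r across probe sets of 0.995 to 0.996 in TD265 and 0.9925 to 0.9952 in Blackbird, against 0.9593 to 0.9614 between the lines. The array medians lay between 4.44 and 4.47, and folds of probe sets under them are not secure because background was not measured. The hybridisation controls, bacterial and phage transcripts added to each sample, read 9.79 to 10.02 on the TD265 arrays and 9.12 to 9.49 on the Blackbird arrays. Blackbird shares its low control level with 30A, Allo-960S7 and Allo-960 mix (12 arrays, 9.12 to 9.54), and TD265 its higher level with the other 21 arrays (9.69 to 10.31). Line and array set therefore cannot be told apart in any difference between TD265 and Blackbird. For the actin control, the 3′ signal minus the 5′ signal, a measure of RNA quality, was −0.319 ± 0.192 in TD265 and −0.933 ± 0.343 in Blackbird (mean ± SD, n = 3 each). The ef1a pair stood the other way, 0.052 ± 0.242 in TD265 and 0.616 ± 0.124 in Blackbird (n = 3 each), and the gapdh pair was −2.418 ± 0.115 and −2.643 ± 0.0812 (n = 3 each).

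**Figure D2:**
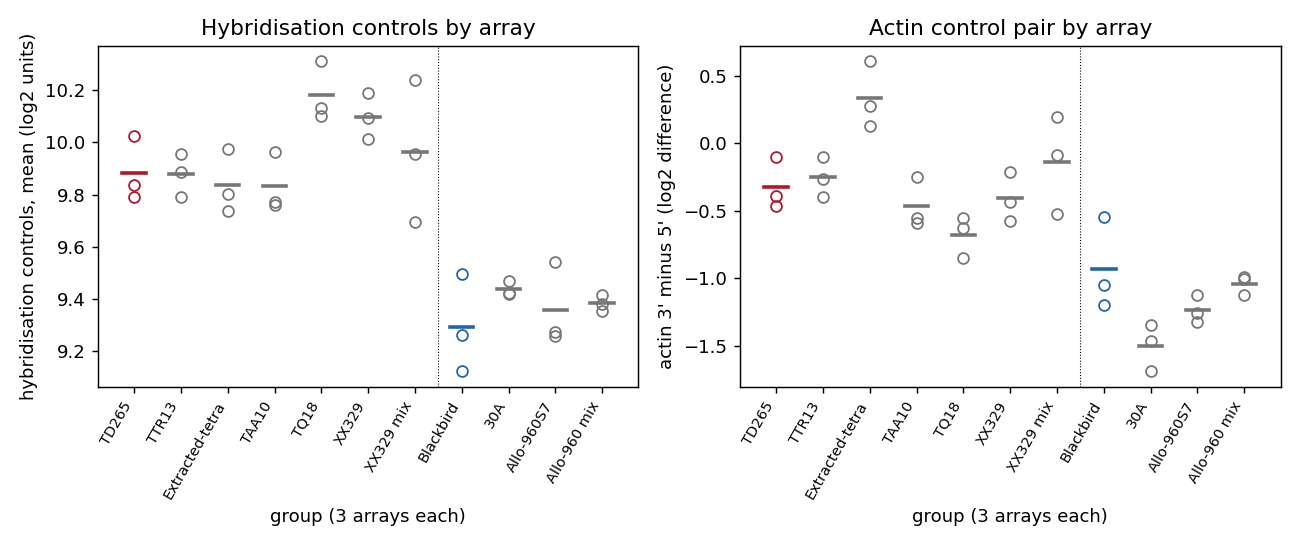
Circles are single arrays and bars the means of 3 arrays per group, for the mean of the hybridisation controls (log2 units, left) and the actin 3′ signal minus its 5′ signal (log2, right); the dotted line divides the 21 arrays of the TD265 set from the 12 of the Blackbird set. TD265 (red, 9.79 to 10.02) and Blackbird (blue, 9.12 to 9.49) do not overlap in the hybridisation controls.

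Centring the arrays on the hybridisation controls moved every difference by −0.59, to a median of −0.56 over all probe sets. It gave 1412 probe sets higher and 45090 lower in TD265. The share of higher calls was 3.04% under this scaling and 47.7% without it. Directions below are relative to the deposited scaling, in which array medians are nearly equal.

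Leaf identity was read from the photosynthesis genes. The planned Rubisco small subunit, Rubisco activase and chlorophyll a/b-binding proteins were not among the genes with a name, and petC was not planned. Of the other planned leaf markers, rbcl, the Rubisco large subunit, was called higher at 10.01 in TD265 and 8.05 in Blackbird. FBP and Pgk-1, also planned, were not called. PsbO and PsbP, proteins of the oxygen-evolving complex, and petC, the Rieske protein of the cytochrome b6f complex, had means of 14.26 to 14.41 in both lines, far above the array medians, and none of the 3 was called at the probe set read for it. A second PsbP probe set, of the x type, was called lower at 13.28 in TD265 and 13.75 in Blackbird (−0.47, adjusted p = 0.000199). Of 19 grain protein genes, 16 lay under the array medians in both lines. The summed level of all 19 was 10.26 to 10.36 (log2) on the TD265 arrays and 10.36 to 10.5 on the Blackbird arrays. The brightest member, ALP, had means of 10.03 in TD265 and 10.20 in Blackbird, far above the array medians, and was not called. This probe set makes up most of the summed level. The other 3 ALP probe sets had means under the array medians in both lines and were not called. The anther genes raftin1a and raftin1b summed to 5.23 to 5.45 in TD265 and 4.83 to 5.19 in Blackbird, and neither was called. The raftin1b means, 5.02 and 4.67, were above the array medians. Profilin, planned as a pollen and anther marker, was bright at 13.58 in TD265 and 13.55 in Blackbird. DMAS1, planned as a root marker, read 7.35 and 7.92, also above the medians. The part of grain, anther or root RNA in the results was not tested.

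Of the 102 genes with a name other than a locus number, each read from 1 probe set, 24 (23.5%) were called, 12 higher and 12 lower in TD265. That share is near the 20.1% of all probe sets. The median difference of the 102 was 0, and the medians of the lists below ran from −1.02 for metal handling to 0.29 for the cytoskeleton and for protein folding, repair and turnover. The arrays of the lines did not overlap for 23 of the 24, PEAMT1 being the exception, but the lines did not overlap for 41.2% of all probe sets either, and 19.9% were also called. With 3 arrays against 3, an exact permutation test of a single gene cannot fall under 0.1.

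**Figure D3:**
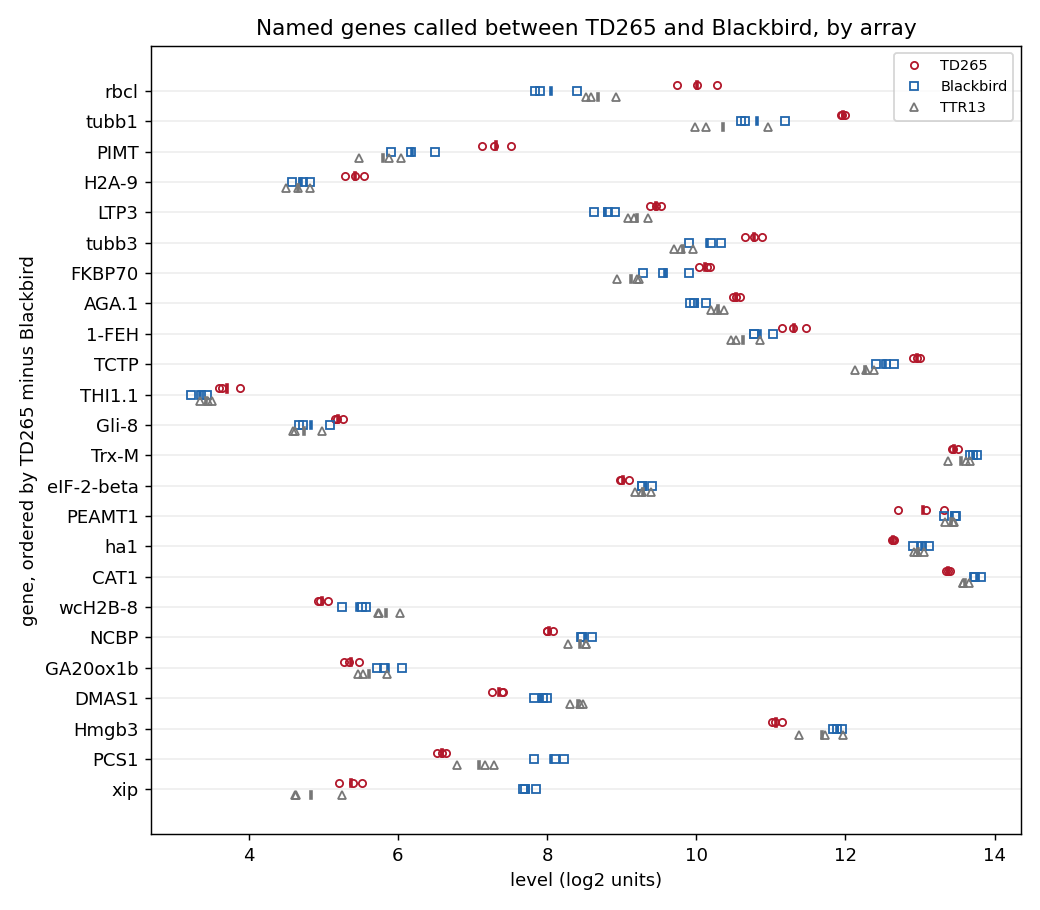
Levels (log2 units, x axis) of the 24 called named genes, ordered by the difference TD265 minus Blackbird, on each array of TD265 (red circles), Blackbird (blue squares) and TTR13 (grey triangles), with short bars at the means of 3 arrays. In the deposited scaling the differences run from 1.96 for rbcl at the top to −2.37 for xip at the bottom, 1-FEH, TCTP, FKBP70, AGA.1, Gli-8 and THI1.1 turn below 0 under control centring, and the arrays of PEAMT1 overlap.

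Genes of carbon fixation had 1 of 4 members called, rbcl (LOC100049018), the large subunit of Rubisco. Its level was 9.74, 10.28 and 10.01 on the TD265 arrays and 8.40, 7.84 and 7.90 on the Blackbird arrays, so every TD265 array was higher. The difference was 1.96 (SE 0.25, 3.9-fold, adjusted p = 4.31e-07). TTR13 lay nearer to Blackbird at 8.68 ± 0.22 (mean ± SD, n = 3). In bulk leaf RNA, more cells with a transcript and more of it per cell cannot be told apart. The Calvin cycle genes PRK, FBP and Pgk-1 were not called.

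The chip holds 28 probe sets for rbcl, which did not move alike. In 10 of them the level was called higher in TD265 and in none lower, while 18 were not called. Among the 12 above the array medians in at least 1 line, 8 were called higher and differences ran from 0.11 to 1.96 with a median of 0.71. Among the 16 under the medians in both lines, 2 were called higher and the median was 0.04. The brightest probe sets, near 15 log2 units, were of the x type and were not called. Of these, 1 read 15.09 in TD265 and 14.96 in Blackbird. The x type was avoided in choosing the dimmer probe set that gave the 1.96. The mean over all 28 probe sets was 0.38.

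**Figure D4:**
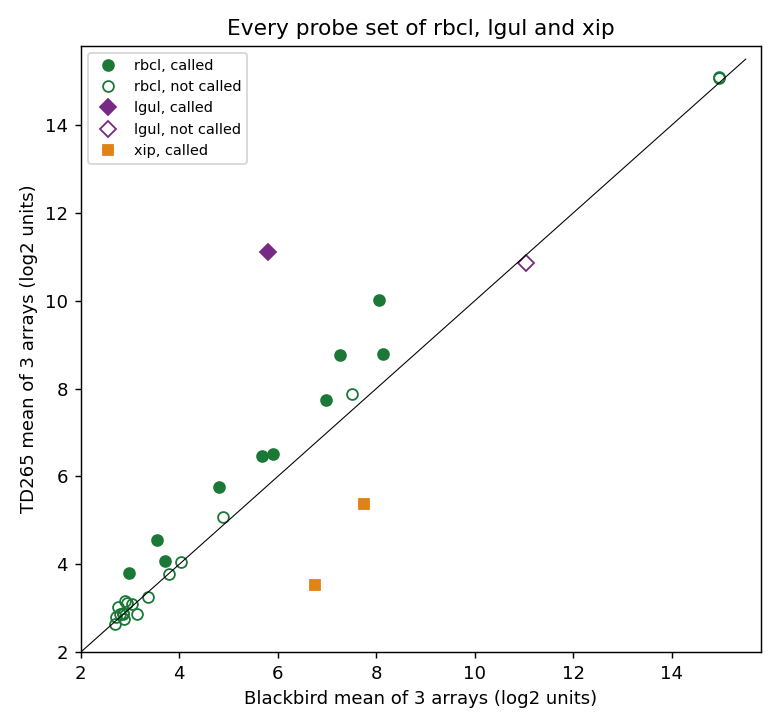
Mean of 3 TD265 arrays (y axis) against mean of 3 Blackbird arrays (x axis), both in log2 units, for each probe set of rbcl (green circles), lgul (purple diamonds) and xip (orange squares); filled symbols were called and the line marks equal levels. Of 28 rbcl probe sets 10 lie above the line and were called, 1 of 2 lgul probe sets lies far above it, and both xip probe sets lie below it.

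Among antioxidant genes, 0 of 5 were called higher and 2 lower in TD265. CAT1, a catalase that breaks down hydrogen peroxide in peroxisomes, read 13.37, 13.34 and 13.40 in TD265 and 13.73, 13.73 and 13.82 in Blackbird. The arrays of a line lay close together. The difference was −0.38 (SE 0.082, adjusted p = 0.000679), and a second CAT1 probe set gave −0.51, both called. Trx-M (LOC542973), a chloroplast thioredoxin, was lower by a smaller amount, −0.25 (SE 0.084, adjusted p = 0.0287). The Trx-M call was lost without TD265 replicate 2 (−0.24) or 3 (−0.24) or Blackbird replicate 1 (−0.23) or 3 (−0.26).

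The xylanase inhibitor xip (LOC542997), a protein that blocks fungal cell-wall-degrading enzymes, had the lowest difference of the named genes. It read 5.39, 5.22 and 5.51 in TD265 and 7.70, 7.86 and 7.68 in Blackbird. The gap between the lines was thus many times the spread within either (−2.37, SE 0.26, adjusted p = 1.94e-08), and a second xip probe set gave −3.22, also called. TTR13 was low as well (4.84 ± 0.36, n = 3). Extracted-tetra read 8.53 and TAA10 8.32. The other 3 genes of the defence list were not called: PR5 was 5.01 in TD265 and 3.80 in Blackbird, GLU1A 9.89 and 10.58, and WMAI-1 5.67 and 5.57. The Blackbird arrays of GLU1A lay far apart, at 7.73, 11.89 and 12.14.

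Both genes of metal handling were called lower in TD265. PCS1 (LOC542834), the enzyme that makes metal-binding phytochelatins, read 6.59, 6.65 and 6.52 in TD265 and 8.23, 8.11 and 7.83 in Blackbird. Every TD265 array was lower by more than 1 log2 unit (−1.47, SE 0.21, adjusted p = 2.38e-06), and TTR13 stood between the lines at 7.08 ± 0.26 (n = 3). DMAS1 (LOC100037594), a reductase that completes the synthesis of the iron chelator deoxymugineic acid, differed by −0.57 (SE 0.18, adjusted p = 0.025). Its other 2 probe sets were not called, the mean over its 3 probe sets was 0.01, and the call was lost without TD265 replicate 1 (−0.52) or 3 (−0.59) or Blackbird replicate 2 (−0.56) or 3 (−0.53). With the actin difference as a covariate the adjusted p of DMAS1 was 0.106.

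Neither detoxification gene was called at the probe set read for it, yet lgul (LOC542984), glyoxalase I, which clears methylglyoxal, had probe sets that stood far apart. This gene was singled out after its values were seen. The lgul probe set with the highest mean read 10.87 ± 0.047 in TD265 and 11.03 ± 0.18 in Blackbird (mean ± SD, n = 3 each; adjusted p = 0.695). The second lgul probe set read 11.20, 11.02 and 11.15 in TD265 but 6.16, 5.57 and 5.66 in Blackbird, a difference of 5.33 (SE 0.22, 40.1-fold, adjusted p = 7.32e-18). The arrays of the lines did not overlap at either probe set, and TD265 was the lower line at the first, by an amount not called, and the higher line at the second. Its level was 11.72 in TTR13, 11.38 in Extracted-tetra and 11.10 in TAA10. It was low in 30A (6.74), Allo-960S7 (6.76), Allo-960 mix (6.56) and TQ18 (6.91). For GSTZ1 (LOC543412), a glutathione S-transferase, 1 of 2 other probe sets was called higher in TD265.

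Of 7 cytoskeleton genes, 2 were called higher and 0 lower in TD265, both β-tubulins, the building blocks of microtubules. The gene tubb1 (LOC543257) read 11.94, 11.99 and 11.96 in TD265 and 10.59, 10.66 and 11.19 in Blackbird. All TD265 arrays were higher (1.15, SE 0.39, 2.21-fold, adjusted p = 0.0362), but this call was lost without Blackbird replicate 1 (1.04) or 2 (1.07) or any TD265 array (1.13 to 1.16), and Blackbird replicate 3 was the 1 array whose omission kept it. The gene tubb3 (LOC543473) was 1.55-fold higher (0.63, SE 0.21, adjusted p = 0.0285), a call lost without TD265 replicate 1 (0.57) or 2 (0.63) or Blackbird replicate 1 (0.51) or 2 (0.66). Control centring left tubb1 at 0.56 and tubb3 at 0.04, neither called. The β-tubulins tubb2, Tubb4 and Tubb5 were not called. TUBA and profilin were not called at the probe set read, but each had 1 other probe set called lower, at −0.65 and −0.55.

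Chromatin genes had 1 of 6 members higher and 2 lower. Hmgb3 (LOC543333), a high mobility group protein that bends DNA, read 11.02, 11.15 and 11.05 in TD265 and 11.89, 11.96 and 11.83 in Blackbird. The lines were cleanly apart (−0.82, SE 0.17, 1.76-fold lower in TD265, adjusted p = 0.000397), although the other Hmgb3 probe set was not called at 0.17. The histone gene H2A-9 (LOC732714) was higher at 5.43, 5.54 and 5.29 in TD265 against 4.73, 4.82 and 4.58 in Blackbird (0.72, SE 0.15, adjusted p = 0.000534), with 1 more called higher among 5 further probe sets; control centring put it at 0.13, not called. The histone gene wcH2B-8 (LOC543184) was lower by a smaller amount (−0.47, SE 0.16, adjusted p = 0.0345). That call was lost without any TD265 array (−0.44 to −0.51) or without Blackbird replicate 2 (−0.41) or 3 (−0.43), and the actin covariate gave −0.16.

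In the group of protein folding, repair and turnover, 2 of 4 genes were higher and 0 lower. PIMT (LOC543193), the methyltransferase that repairs damaged aspartyl residues, read 7.52, 7.13 and 7.29 in TD265 and 5.91, 6.17 and 6.49 in Blackbird. The lowest TD265 array stood above the highest Blackbird array (1.12, SE 0.21, 2.18-fold, adjusted p = 0.000129), and TTR13 was lower still at 5.80 ± 0.29 (n = 3). FKBP70 (LOC543314), a peptidyl-prolyl isomerase that works with chaperones, was 1.45-fold higher (0.54, SE 0.17, adjusted p = 0.0225), but −0.06 under control centring. The FKBP70 call was lost without TD265 replicate 1 (0.50) or 3 (0.52) or Blackbird replicate 1 (0.39) or 2 (0.52).

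Translation genes had 1 of 7 members higher and 2 lower. TCTP (LOC542949), an abundant growth-related protein, read 13.01, 12.91 and 12.96 in TD265 and 12.41, 12.55 and 12.65 in Blackbird (0.42, SE 0.095, adjusted p = 0.0012); it was read from a probe set of the x type, and control centring turned it to −0.17. NCBP (LOC100049030), a protein that binds the messenger RNA cap, was lower at 8.0, 8.08 and 8.0 against 8.60, 8.47 and 8.45 (−0.48, SE 0.11, adjusted p = 0.000911). The translation factor gene eIF-2-beta (LOC543269) was lower by less (−0.30, SE 0.095, adjusted p = 0.0238), and its call was lost without TD265 replicate 2 (−0.28) or 3 (−0.28) or Blackbird replicate 1 (−0.26). The cap-binding factor eIF4E, eIF4B, RPL9 and RPS29 were not called.

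Among membrane transport genes, 0 of 3 were higher and 1 was lower. The proton pump gene ha1 (LOC543149), which energises the plasma membrane, read 12.62, 12.64 and 12.66 in TD265 and 13.03, 12.91 and 13.13 in Blackbird. The shift was small but larger than the spread (−0.38, SE 0.083, adjusted p = 0.00081). A second ha1 probe set gave −0.38, also called, and the remaining one 0.12, not called. The channel gene TPC1 had a difference of −0.01 and was not called.

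Storage carbohydrate genes had 1 of 5 members higher and 0 lower. That gene, 1-FEH (LOC543441), which trims fructan, was 1.36-fold higher (0.45, SE 0.13, adjusted p = 0.0151), with −0.14 under control centring. The 1-FEH call was lost without TD265 replicate 2 (0.37) or Blackbird replicate 1 (0.40) or 2 (0.41). AGA.1 (LOC543278) was called higher among the 12 other leaf genes, of which 2 were higher and 0 lower. It read 10.59, 10.53 and 10.49 in TD265 and 9.92, 9.98 and 10.13 in Blackbird (0.53, SE 0.097, adjusted p = 0.000109), with its other probe set not called and −0.06 under control centring. LTP3 (LOC543095), a lipid transfer protein, was 1.59-fold higher (0.67, SE 0.2, adjusted p = 0.0161), and its second probe set gave 0.45, also called. The LTP3 call was lost without TD265 replicate 1 (0.64) or Blackbird replicate 2 (0.59), the actin covariate gave 0.30, and control centring gave 0.08, neither called.

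Of the gibberellin 20-oxidases, enzymes of growth hormone synthesis, 0 of 3 were higher and GA20ox1b (LOC543326) was lower (−0.49, SE 0.16, adjusted p = 0.0262). Its call was lost without TD265 replicate 2 (−0.45) or 3 (−0.48) or Blackbird replicate 2 (−0.40). Among 3 methyl transfer genes, 0 were higher and PEAMT1 (LOC543067), which methylates phosphoethanolamine, was lower (−0.38, SE 0.12, adjusted p = 0.0261). PEAMT1 read 12.71, 13.33 and 13.08 in TD265 and 13.32, 13.47 and 13.48 in Blackbird, so 1 TD265 array reached into the Blackbird range. Its call was lost without TD265 replicate 1 (−0.22) or Blackbird replicate 2 (−0.36) or 3 (−0.35). Among grain proteins 2 of 19 were higher, the gliadin gene Gli-8 (5.20 in TD265 and 4.83 in Blackbird) and the purothionin gene THI1.1 (3.71 and 3.34, under the array medians). The Gli-8 call (0.37) was lost without any TD265 array (0.34 to 0.39) or without Blackbird replicate 1 (0.30) or 3 (0.32). The THI1.1 call (0.37) was lost without TD265 replicate 1 (0.40) or 3 (0.28) or Blackbird replicate 1 (0.38) or 2 (0.31), and both genes stood at −0.22 under control centring. No member of the lists for glycolysis (2 genes), transcription (2), purines (2) or cold, dehydration and late embryo genes (5) was called.

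Of the 24 named calls, 11 were kept in each fit that left out 1 of the 6 arrays, with the actin covariate, and at an adjusted p under 0.01. These were rbcl, PIMT, H2A-9, AGA.1 and TCTP, higher in TD265, and xip, PCS1, Hmgb3, NCBP, CAT1 and ha1, lower. The other 13 were lost with the actin covariate, at the stricter threshold and without at least 1 array. Control centring was not among these fits. It put H2A-9 at 0.13, AGA.1 at −0.06 and TCTP at −0.17, none called. Of the genes higher in TD265, rbcl (1.37) and PIMT (0.53) kept their direction and call. The genes lower in TD265 stayed lower and called, but the shift of −0.59 moves them further down. Their direction under this scaling was thus fixed in advance and is no test of them. Hmgb3 and TCTP were read from probe sets of the x type.

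Of the 669 genes known by a locus number alone, 187 were called, 93 higher and 94 lower, and over all 771 genes with a symbol 27.4% were called with a median difference of 0.02. Past 4-fold stood 17 of the 669, 6 up and 11 down in TD265. Over all probe sets tested 20.1% were called, and 0.745% were called at least 4-fold higher and 1.15% lower. The counts are therefore not read as a trait of these genes. Those named here were chosen after their values were seen. LOC100125679 read 11.65, 11.71 and 11.77 in TD265 and 4.2, 4.35 and 4.21 in Blackbird, under the array medians. Its probe set was thus bright in the wild line and at the bottom of the scale in the other (7.46, SE 0.2, adjusted p = 2.34e-22). TTR13 was near the bottom as well at 4.90 ± 0.095 (n = 3), on arrays of the same control level as TD265. LOC542884 was 4.76-fold higher in TD265 (8.99, 9.12 and 8.83 against 6.75, 6.86 and 6.56). LOC543150 was lowest, at 5.72, 5.78 and 5.58 in TD265 and 9.82, 10.20 and 10.63 in Blackbird (23-fold, adjusted p = 2.57e-12), with TTR13 between them at 8.44 ± 0.52 (n = 3). LOC543372 was 7.21-fold lower in TD265 (9.96, 10.12 and 10.05 against 12.72, 12.91 and 13.05).

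Some probe sets were bright in 1 line and at the bottom of the scale in the other. Such one-sided probe sets were taken where all 3 arrays of a line stood at 8 log2 units or more and all 3 of the other at or under the array's median. As the levels themselves chose them, they are described without a test. Whether a transcript was absent where its probe set was at the bottom was not tested. There were 29 bright in TD265 (0.0474% of those tested) and 56 bright in Blackbird (0.0915%). The lowest bright array was 8.021 and 8.035 in these sets, and the nearest probe sets outside reached 7.999 and 7.98. Of the 85, 1 had a gene symbol, LOC100125679.

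The other lines were mixed at these probe sets. Of the 29 bright in TD265, TTR13 was bright in 12 and at the bottom in 8, and Extracted-tetra in 15 and 7. Of the 56 bright in Blackbird, TTR13 was bright in 19 and at the bottom in 24, and Extracted-tetra in 26 and 19. Of the 56, 31 were bright in at least 1 group of the 21 arrays that share the control level of TD265, and 15 were at the bottom in every group of those arrays. Of the 29, 2 were bright in another group of the Blackbird array set, where the lines are Blackbird, 30A and their hexaploid. The hexaploid Allo-960S7 kept all 56 above the bottom class, with 28 bright and 28 between, and Allo-960 mix, which contains Blackbird RNA, had 33 bright and 23 between. Both Aegilops tauschii lines were at the bottom in 15 of the 29 and in 35 of the 56. Of the 29, 1 was at the bottom in all 10 other groups.

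**Figure D5:**
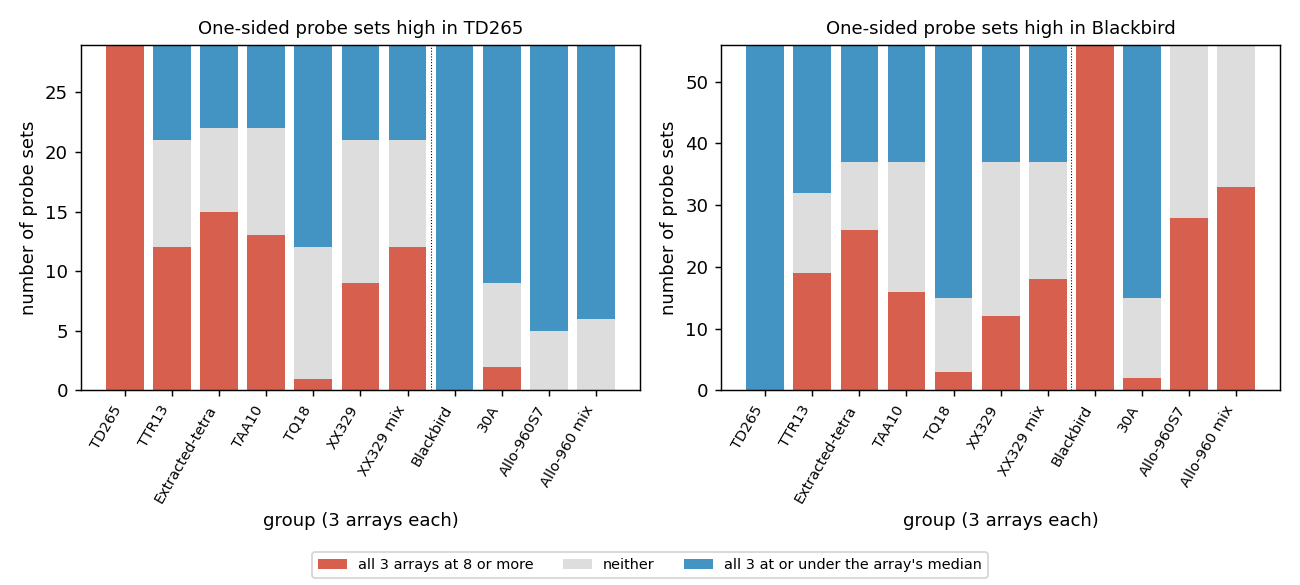
Number of one-sided probe sets (y axis) bright in TD265 (left, 29) and bright in Blackbird (right, 56) in each group; red counts probe sets with all 3 arrays at 8 log2 units or more, blue those with all 3 at or under the array's median, grey the others, and the dotted line divides the array sets. TTR13 and Extracted-tetra, on arrays like those of TD265, were bright in 19 and 26 of the 56.

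The probe sets without a gene symbol with the highest and lowest differences show both patterns. The probe set with the highest difference, of the x type, read 13.44, 13.63 and 13.54 in TD265 and 5.67, 4.84 and 5.34 in Blackbird, and was bright in TTR13 (13.74) and Extracted-tetra (14.18). The next highest was 11.26 ± 0.051 in TD265 and 4.2 ± 0.15 in Blackbird (n = 3 each), with 10.81 in TTR13. Blackbird was thus the low line of these tetraploids at both. The probe set with the lowest difference read 2.73, 2.76 and 3.01 in TD265 and 10.68, 10.98 and 10.94 in Blackbird, with 9.03 in TTR13 and 11.51 in Extracted-tetra, so that TD265 was the low line. The next lowest was 11.07 ± 0.024 in Blackbird and 3.24 ± 0.20 in TD265 (n = 3 each). It was at the bottom in TTR13 (3.25) and Extracted-tetra (3.22) and bright in Allo-960S7 (10.48) and Allo-960 mix (10.55), which descend from or contain Blackbird.

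At the probe sets called with 4-fold or larger differences, the third natural tetraploid stood more often on the side of Blackbird. Of the 456 higher in TD265, the TTR13 mean lay on the Blackbird side of the midpoint in 329 (72.1%), and of the 706 lower in TD265 in 435 (61.6%). For Extracted-tetra these were 302 (66.2%) and 462 (65.4%). Median levels of the 456 were 7.78 in TD265, 4.59 in Blackbird and 5.65 in TTR13, and of the 706 they were 4.48, 7.76 and 6.88. These counts describe probe sets chosen by the difference between TD265 and Blackbird, and carry no test. Over all probe sets, 13626 (22.3%) were called between TTR13 and TD265 and 9942 (16.3%) between TTR13 and Blackbird; these contrasts share arrays with the one above, and TTR13 and TD265 have like control levels (9.79 to 9.96 in TTR13).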

How the data were processed

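Leaf RNA was hybridised to 33 Affymetrix wheat arrays, 3 for each of 11 labelled groups. The table deposited by the authors holds 1 log2 value per probe set and array, already normalized between arrays. Per the submitters' processing notes RMA and limma were used, with no version given, and other steps are not given in the sources used here. Arrays hold no read depth, so precision is limited by the number of arrays. Of 61290 probe sets, 111 controls were left out and 61179 were tested. Group means of all 33 arrays were fitted by lmFit and eBayes of limma 3.58.1, under R 4.3.3 (2-sided, Benjamini-Hochberg over all probe sets), with TD265 minus Blackbird as the contrast and a call at an adjusted p under 0.05. No covariate was used.

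The platform annotation, which is old, gave 1 symbol to each of 1273 probe sets (771 genes) and none to 59906; 1272 matched RefSeq by Entrez ID. Names came from RefSeq symbols and aliases, which left 102 named genes in 21 lists. The lists were meant to be matched on RefSeq descriptions and were instead rewritten by symbol once the annotation was seen to hold none. A gene was read from its brightest probe set over the 33 arrays, avoiding the x type where possible. Named were up to 12 called genes at each end with arrays that did not overlap and a higher mean above the array medians, up to 2 called members of each list, and the 2 highest and 2 lowest probe sets without a symbol. Members and lists were chosen with earlier results of these data known.

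Same-numbered arrays of the lines did not deviate together (r of 0.005, −0.004 and −0.001), so the numbers were not taken as pairs. On simulated data for TD265 against Blackbird with 61179 probe sets, the fit recovered 31% of 100 probe sets changed 1.5-fold and 86% of 100 changed 2-fold, with 9 false calls. The simulated noise was independent, all other probe sets were unchanged and the array sets did not differ. In the data 20.1% were called, so these rates need not carry over. Alternatives were other scalings, filters on dim or x-type probe sets, other moderation, array weights, fewer arrays, a replicate block, an actin covariate and other thresholds.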

Additional observations from a re-analysis of the deposited data

How the results depend on the processing

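Of the 12305 calls between TD265 and Blackbird, counts stayed within 1.5 times under the other alternatives, but were 46502 with hybridisation control centring, 18558 with array weights and 3848 at 2-fold or more; without single arrays they were 10172 to 10559. Of all 102 named genes, 24 were called, against 80 with control centring, 13 with the actin covariate (11 of them among the 24), 11 at an adjusted p under 0.01, and 14 to 19 without single arrays; these counts can include genes outside the 24. The 85 one-sided probe sets became 174 at a level of 7 and 37 at a level of 9. Control centring reversed 1-FEH (−0.14), TCTP (−0.17), FKBP70 (−0.06), AGA.1 (−0.06), Gli-8 (−0.22) and THI1.1 (−0.22), because it moves every difference by −0.59. The mean over all probe sets reversed DMAS1 (0.01), whose other probe sets were not called. With a replicate block on the 6 arrays 15918 probe sets were called, and of the 24 named calls that of Trx-M was lost; the arrays share only a number. Line and array set cannot be told apart for TD265 against Blackbird, and no fit of these 2 lines within an array set could be made. Background was not measured, so differences of probe sets under the array medians are not secure.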
